A study of Mus musculus with 5 samples.

Results

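The Zfp genes are mouse genes named for zinc fingers, and 151 probes on the array carried such a name, of 20355 probes in all. Members were taken by gene symbol, as Zfp followed by digits and at most 2 further characters, in the platform's probe annotation, and no measured value entered that choice. The 151 probes name 111 genes, of 9930 genes named on the array; 79 genes had 1 probe, 25 had 2, 6 had 3 and 1, Zfp652, had 4. A mouse gene table (GRCm38.p6) held all 111 gene identifiers under unchanged symbols, and it lists 397 protein-coding genes of this name form.

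Zinc fingers are short protein folds held together by a zinc ion. Most Zfp proteins carry a row of fingers of the C2H2 type, which read DNA sequence, and many also carry a KRAB domain that recruits the corepressor TRIM28 and the histone methyltransferase SETDB1 to silence retroelements, imprinted regions and genes. The shared name covers other functions too: Zfp36 and its relatives have fingers of the CCCH type and bind AU-rich messenger RNAs, which are then deadenylated and degraded. Transcripts of such regulators are generally scarce in tissue.

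Liver RNA of 5 male Pitx3eyl-/- mice aged 17 weeks was compared with an RNA pool of wild-type mice, each mutant animal on its own 2-colour cDNA array. Pitx3 encodes a homeodomain transcription factor of lens and midbrain dopamine neurons, and eyl (eyeless) is the mutant allele that all 5 animals carry in both copies. Replicates 1, 2 and 4 carried the mutant sample in Cy5, and the dyes were swapped on the other 2 of 5 arrays, replicates 3 and 5. The pool held 4 animals per the sample labels and 6 per the labelling protocol; it is 1 control sample, and the spread between wild-type animals is in no error given here.

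The table holds log2 ratios only. A positive value is taken as higher in the mutant liver, a likely direction that no source states, and no brightness of either channel is given, so a level of any transcript, or the liver identity of the RNA, could not be checked. The number of missing values is the nearest readout: probes of 11 hepatocyte genes such as albumin and apolipoproteins lacked 13.8% of their values. Pitx3 had 0 probes, which leaves the mutated gene unmeasured. Array medians over all probes lay between -0.19 and 0.23, and 13576 to 15892 probes per array had a value. A fault in the naming of single probes would not be seen here, and agreement between probes of the same gene, given further on, is the only check of it.

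Zfp transcripts were measured less often than the average probe. Of the 755 possible values of the 151 probes, 261 (34.6%) were missing, against 28.6% over all probes. On replicate 1, 24.5% of Zfp probes had no value, against 21.9% of all probes. The share was 43.0% against 32.1% on replicate 2 and 35.8% against 30.3% on replicate 3. It was 38.4% against 33.3% on replicate 4 and 31.1% against 25.4% on replicate 5. The Zfp share was thus the higher on each of the 5 arrays, and the gap was widest on replicate 2. This is a description without a test, since the family was picked with earlier results of these data known.

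**Figure D1:**
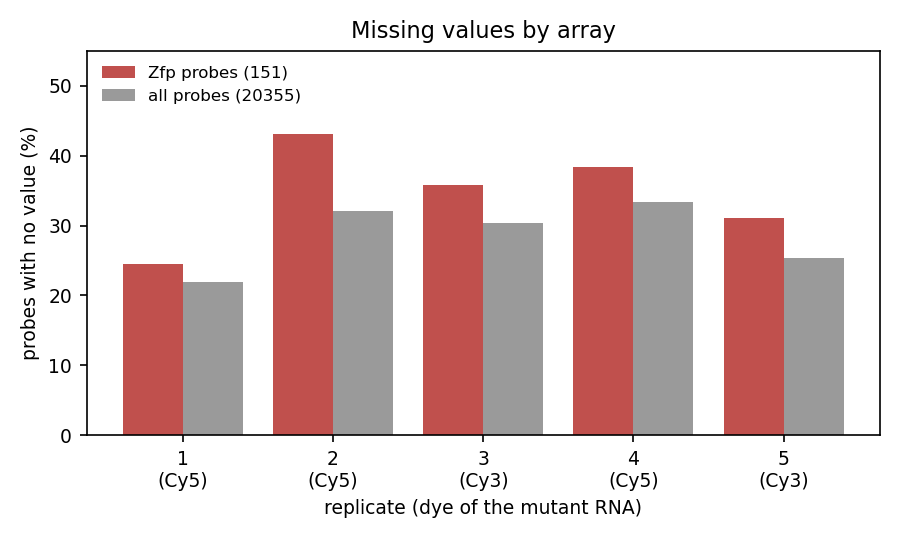
Percent of probes with no value on each array (y axis, percent), for the 151 Zfp probes and for all 20355 probes; the x axis gives the replicate and the dye of the mutant RNA. The Zfp bar is the taller one on every array, with 43.0% against 32.1% on replicate 2.

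Per probe, 35 of the 151 (23.2%) had a value on all 5 arrays, against 31.3% of all probes. A further 36 had 4 values, 35 had 3, 27 had 2 and 16 had 1. The 2 probes with 0 values belong to Zfp365, a binding partner of DISC1, and Zfp593, a factor of ribosome biogenesis known from human and yeast. Both genes have further probes, and the second Zfp365 probe was measured on all 5 arrays. Taking the best probe of each gene, 60 of 111 genes were measured on 4 or 5 arrays, 21 on 3, 19 on 2 and 11 on 1.

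Other zinc-finger families of the array were set beside the Zfp probes. Missing values made up 30.0% for 28 probes of Zbtb genes, which pair fingers with a BTB domain, and 35.5% for 22 probes of Klf and Sp genes, which bind GC-rich promoters. They made up 25.5% for 11 probes of Znf, Zscan and Zkscan genes. The Zfp share of 34.6% lay inside this range, so it is not particular to the Zfp name. The 7 probes of lymphocyte markers, 37.1%, and the 6 of endothelial markers, 30.0%, also stood above the 13.8% of the 13 hepatocyte probes.

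On each array 1 value of absolute size over 12 was repeated many times, which is a code and not a measurement, and these were set to missing. Its sign followed the dye, being positive on the 3 Cy5 arrays and negative on the 2 Cy3 arrays. Of 788 coded values, 8 fell on Zfp probes: 1, 0, 2, 3 and 2 of them on replicates 1 to 5. They belong to 1 probe each of Zfp12, Zfp217, Zfp365, Zfp36l1, Zfp518b, Zfp532, Zfp593 and Zfp692. The measured Zfp values lay between -6.57 and 7.08, well inside the limit.

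Many deposited values equal an array constant plus the log2 of a ratio of whole numbers up to 20. Such values made up 24.7% of the measured Zfp values, against 25.5% over all probes. By array the Zfp share ran from 18.4% on replicate 1 to 32.3% on replicate 4. This readout did not set the Zfp probes apart. How many of the matches are coincidence was not tested.

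Measured Zfp values were wide. Of the 494 values, 214 (43.3%) lay over 2-fold from equality, against 39.5% over all probes, and 57 (11.5%) lay over 8-fold away, against 8.45%. The SD of the Zfp values within an array was 1.70, 2.17, 1.95, 1.71 and 1.53 on replicates 1 to 5. Over all probes it was 1.54, 1.63, 1.58, 1.72 and 1.51. The Zfp values were the wider on replicates 1, 2 and 3, most on replicate 2, and lay within 0.02 of all probes on replicates 4 and 5.

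The SD between the 5 arrays, in which animal and array cannot be told apart, could be taken for the 35 fully measured probes. Its median was 0.86, with quartiles of 0.51 and 1.59, against a median of 0.71 with quartiles of 0.43 and 1.28 over the 6364 probes with 5 values. An SD over 1 was found for 15 of the 35 Zfp probes (42.9%), against 34.7% of all. The difference between the medians did not hold throughout: without replicate 4 the Zfp median was 0.64, against 0.69 over all probes. Without replicate 1, 2, 3 or 5 the Zfp median stayed the higher, at 0.87, 0.98, 0.91 and 0.86, against 0.74, 0.77, 0.77 and 0.75. Taken around the mean of each dye orientation it was 0.69 against 0.69. Among probes measured on 4 arrays the median SD was 1.80 for 36 Zfp probes, against 1.42 for all such probes. Among those measured on 3 arrays it was 1.53 for 35 Zfp probes, against 1.60, so the order turned.

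**Figure D2:**
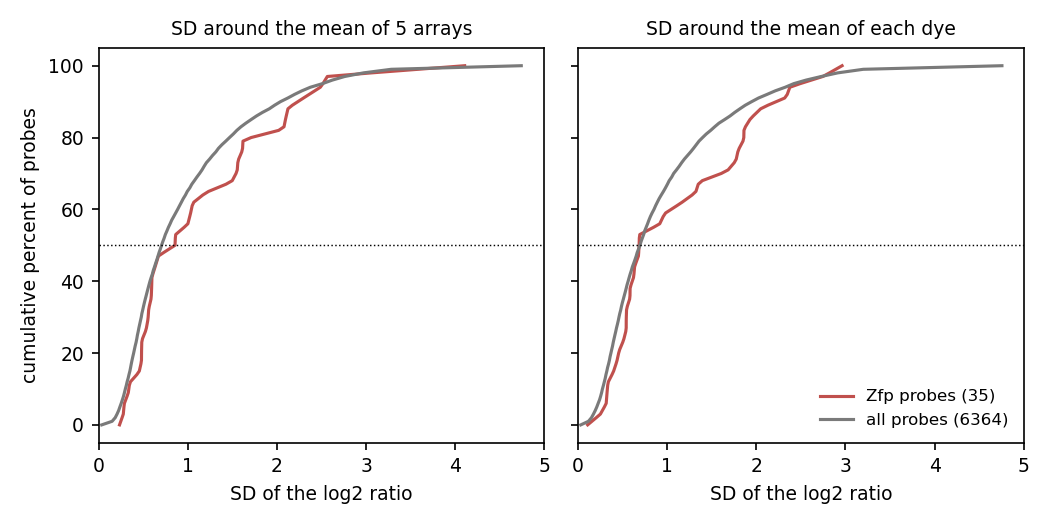
Cumulative percent of probes (y axis) by the SD of their log2 ratio (x axis), for 35 Zfp probes and all 6364 probes with 5 values; the left panel takes the SD around the mean of 5 arrays, the right panel around the mean of each dye orientation. The medians (dotted line) are 0.86 and 0.71 on the left and both 0.69 on the right.

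Among the 35 probes with 5 values, the lowest SD was that of Zfp36, tristetraprolin, the CCCH protein that marks inflammatory messenger RNAs for decay. Its log2 ratios were 0.44, -0.09, -0.04, 0.37 and 0.19 on replicates 1 to 5, an SD of 0.23. Values lay on both sides of 0 and no array stood apart. Its SD stood at the percentile 4.73 of all fully measured probes, so some probes of the array varied less. With fewer values, Zfp592 probe 2083 had an SD of 0.158 on 4 arrays and Zfp428 probe 10024 one of 0.122 on 3.

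Next came 1 probe each of Zfp706 and Zfp563. Zfp706, a small zinc-finger protein that in mouse embryonic stem cells limits self-renewal, had 0.71, -0.01, 0.15, 0.12 and 0.27 on its probe 19229, an SD of 0.28. The value of replicate 1 was the highest and the rest lay near 0. Zfp563 had 0.33, 0.43, 0.00, 0.36 and -0.25 on its probe 7940, an SD of 0.29, with replicate 5 the lowest.

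The highest SD among the 35 was that of probe 4545 of Zfp207, whose product (BuGZ) binds Bub3 and helps spindle assembly. It had -2.16, -2.09, 0.39, -2.86 and 7.08 on replicates 1 to 5, an SD of 4.11. The 3 arrays with the mutant in Cy5 lay below -2, both arrays in Cy3 lay above 0, and replicate 5 held the highest of all Zfp values. Probe 1419 of Zfp652 had 0.98, -3.18, 0.86, 4.01 and 0.11, an SD of 2.57, with its extremes on replicates 2 and 4, both in Cy5. Zfp652 is a DNA-binding repressor that in human cells works with the corepressor CBFA2T3. Probe 14176 of Zfp512 had -0.22, 3.52, -3.27, 0.06 and -1.43, an SD of 2.49, with replicate 2 high and replicate 3 low.

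**Figure D3:**
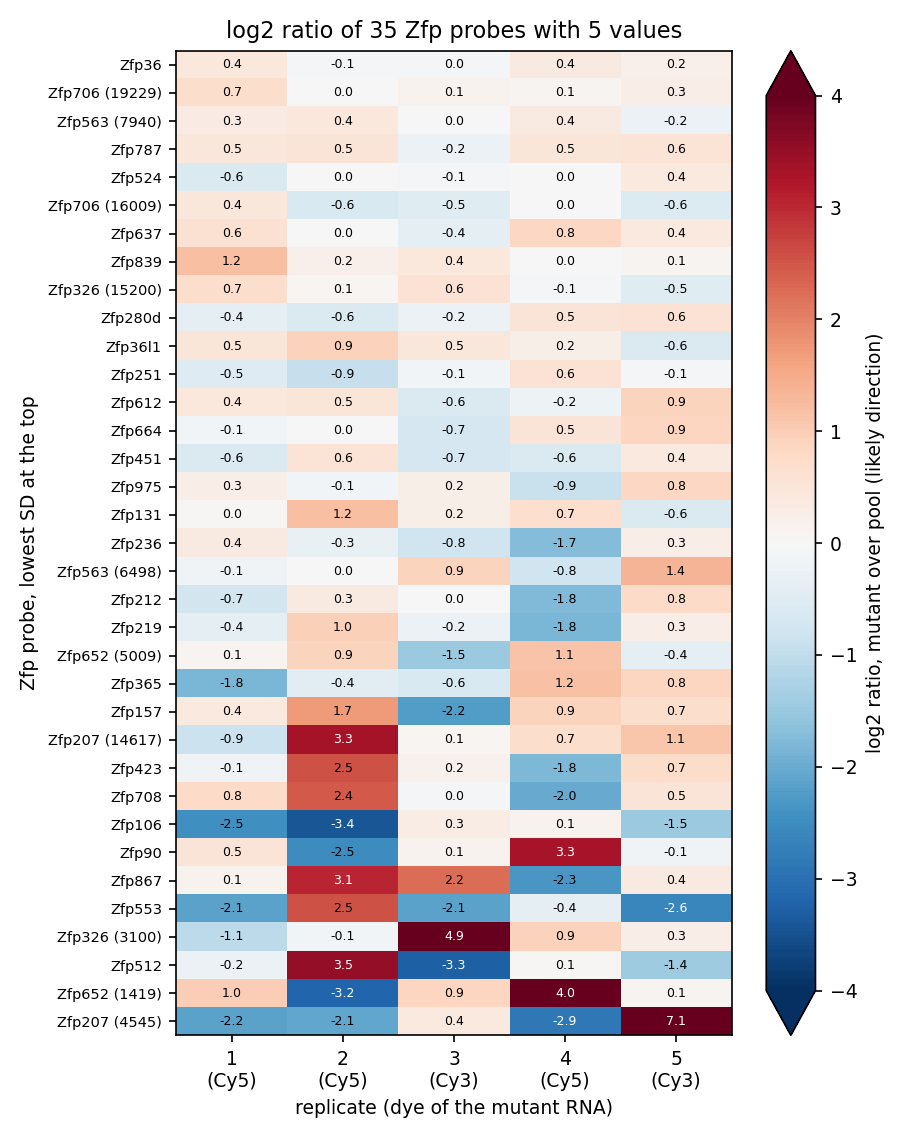
log2 ratio, mutant over pool in the likely direction, of the 35 Zfp probes with 5 values (rows, lowest SD at the top, probe number given where a gene has several) on each array (columns, with the dye of the mutant RNA); colour and printed number give the value, and colours end at 4 and -4. Rows at the top stay within 1 of 0, from Zfp36 (SD 0.23), while those at the bottom hold values far from 0, down to Zfp207 probe 4545 (SD 4.11). All rows but that of Zfp839 change sign between arrays.

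Signs were seldom shared by all 5 arrays. Of the 35 fully measured Zfp probes, 1 (2.86%) had the same sign on all 5 arrays, against 5.99% of all fully measured probes. That probe is Zfp839, with 1.21, 0.21, 0.42, 0.00 and 0.12 on replicates 1 to 5. All 5 values were above 0, but the value of replicate 4 was 0.001 before rounding, so its sign carries no weight. On replicates 4 and 5 Zfp839 lay below the array medians of 0.11 and 0.23, so its single sign depends on the zero point. With arrays centred on their medians 1 of 35 again had 1 sign, against 4.92% of all, and that probe was not Zfp839. In the deposited values the other 34 probes had at least 1 value on each side of 0.

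Between arrays, Zfp ratios of opposite dye orientation ran against each other. Over the 6 pairs of arrays with opposite orientation, Pearson's r across Zfp probes lay between -0.33 and -0.02 (57 to 85 probes per pair), against -0.26 to -0.05 over all probes. It was -0.31 against -0.11 for replicates 1 and 3, -0.33 against -0.26 for 1 and 5, and -0.31 against -0.06 for 2 and 3. It was -0.14 against -0.06 for 2 and 5, and -0.30 against -0.05 for 4 and 5. Only for replicates 3 and 4 was the Zfp value the less negative, at -0.02 against -0.06. Over the 4 pairs of like orientation Pearson's r across Zfp probes lay between -0.10 and 0.18 (58 to 81 probes), against -0.02 to 0.11 over all probes. The most negative was -0.33, between replicates 1 and 5, and the highest was 0.18, between replicates 3 and 5. These are correlations across probes, which are not independent replicates, and every array shares the pool. Spearman's rho gave -0.38 to -0.08 for opposite and -0.11 to 0.19 for like orientation, against -0.24 to 0.01 and -0.05 to 0.11 over all probes. Zfp probes had the same sign on both arrays in 32.5% to 47.5% of cases for opposite orientation, against 42.2% to 53.8% of all probes. For like orientation the share was 46.6% to 53.9%, against 46.1% to 54.1%, so there the Zfp probes were at the background.

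The level of the whole family differed by array. Its median log2 ratio was -0.30, 0.02, 0.01, 0.24 and 0.39 on replicates 1 to 5, against array medians of -0.19, -0.04, -0.00, 0.11 and 0.23 over all probes. The family stood below 0 on replicate 1, near 0 on replicates 2 and 3 and above 0 on replicates 4 and 5, and the array medians were likewise lowest on replicate 1 and highest on replicate 5. On replicate 1, 49 of 114 measured probes were above 0, and on replicate 5, 70 of 104.

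The mutant coefficient weights both dye orientations equally and comes from limma, fitted to every probe with at least 4 values. No Zfp transcript passed the test against the wild-type pool: 0 of 71 tested Zfp probes had an adjusted p under 0.05, as had 0% of all 11300 tested probes. Each had limma's adjusted p of 0.999. At an unadjusted p under 0.05 there were 2 of 71 (2.82%), both below 0, against 4.16% of all probes. With probes of a gene averaged, 0 of 64 Zfp genes passed an unadjusted p under 0.05, against 3.94% of all 6706 genes, and 0 passed the adjusted one, against 0% of all. The share of Zfp probes was thus at or under that of the array.

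Coefficients above 0 were found for 44 of 71 Zfp probes (62.0%), against 53.9% of all, with a median of 0.12, against 0.04. The Zfp share above 0 fell to 49.4% and 49.3% when replicate 4 or 5 was left out, and the median was then -0.01 each time. The share of all probes was not taken in those runs, so they do not show whether the excess over the array was lost. The median standard error was 0.48 for Zfp probes, against 0.43 over all probes. The median absolute size of the coefficient was 0.25 for Zfp probes and 0.32 over all probes. A typical coefficient was thus smaller than a typical error, among Zfp probes and over the array. Tested Zfp coefficients ran from -2.00 to 1.78.

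The 2 probes at an unadjusted p under 0.05 belong to Zfp704 and Zfp652 and were singled out after their values were seen. Probe 5848 of Zfp704 had -2.51, -1.13, -2.59 and -1.78 on replicates 1, 2, 3 and 5 and no value on replicate 4. All 4 values were below -1, in both orientations, and the coefficient was -2.00 ± 0.41 (SE, 4 arrays), with an unadjusted p of 0.00718 and limma's adjusted p of 0.999. The other tested probe of Zfp704 (19333) ran the other way, with -1.76, 2.31, 1.66 and 2.21 on replicates 1, 3, 4 and 5 and a coefficient of 1.11 ± 0.66.

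Probe 1991 of Zfp652 had -1.46, -3.14, -0.21 and -0.94 on replicates 1, 2, 3 and 5. All 4 lay below 0, and the coefficient was -1.44 ± 0.44 (SE, 4 arrays), with an unadjusted p of 0.0283 and limma's adjusted p of 0.999. Its other tested probes stood at 0.54 ± 1.05 and -0.11 ± 0.33. For Zfp839, the 1 member with a single sign on 5 arrays in the deposited values, the coefficient was 0.37 ± 0.31, and limma's adjusted p was 0.999.

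Members with a known role were named by list, 12 of 20 listed genes being on the array. Among the CCCH proteins that promote decay of AU-rich messenger RNAs, Zfp36 had a coefficient of 0.16 ± 0.27 (SE, 5 arrays). Zfp36l1 had 0.49, 0.93, 0.47, 0.24 and -0.57 on its full probe, above 0 on 4 of 5 arrays, and a coefficient of 0.25 ± 0.31. Its second probe had 0.99, 0.59 and 0.44 on replicates 2, 3 and 5, all above 0. Neither gene passed the test.

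Of the listed KRAB and related DNA-binding repressors, 3 are on the array. Zfp57, which keeps methylation at imprinted regions, had a value on 1 array only, -2.76 on replicate 4. Zfp568, which in mouse embryos represses a placental transcript of Igf2, had -1.55, 0.40, 5.27 and -0.76 on replicates 1, 2, 4 and 5. Replicate 4 held the highest Zfp value of that array and the other 3 lay on either side of 0, for a coefficient of 0.31 ± 1.44. Zfp369, a relative of the neurotrophin receptor interacting factor, had -1.63 and 1.92 on replicates 2 and 5. None of these values shows a direction beyond its spread.

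Regulators of cell fate were no clearer. Zfp42, known as the pluripotency marker Rex1, had 0.38, 1.34 and 0.04 on replicates 1, 4 and 5, all above 0 but too few for the test. Zfp423, a factor of fat cell commitment and of brain development, had -0.14, 2.53, 0.18, -1.80 and 0.72, with replicates 2 and 4 at opposite ends although both carried the mutant in Cy5. Its coefficient was 0.33 ± 0.67. Zfp148, which binds GC-rich promoters, had -1.17, -1.003 and 2.13 on replicates 2, 3 and 5.

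Members that act on RNA, protein or the spindle made up the rest of the list. Zfp598, the ubiquitin ligase that senses collided ribosomes, had 0.46, -0.75, 0.00 and -0.31 on replicates 1, 2, 3 and 5, and a coefficient of -0.15 ± 0.38. Zfp451, known in human as a SUMO ligase, had -0.58, 0.56, -0.67, -0.59 and 0.38 on its full probe, and a coefficient of -0.17 ± 0.35. On replicate 3, where that probe had -0.67, its probes 10032 and 19568 had 5.24 and 4.57. Zfp106, an RNA-binding protein needed for the neuromuscular system in mice, had -2.47, -3.42, 0.30, 0.14 and -1.47 on its full probe. Its 3 low arrays, replicates 1, 2 and 5, lay in both orientations, and the coefficient was -1.25 ± 0.63. Its probe 4192 stood at 0.34 ± 0.36. The coefficient of Zfp207 was 0.68 ± 0.98 on probe 4545.

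The dye coefficients of Zfp probes were in the median no smaller than their mutant coefficients: the absolute size was 0.30 for the dye coefficient and 0.25 for the mutant coefficient. Over all tested probes both were larger and in the same order, at 0.35 and 0.32. For the dye, the coefficient is the Cy5 array mean less the Cy3 array mean, divided by 2. Of 71 Zfp probes, 5 (7.04%) had an unadjusted p under 0.05 for it, all below 0, against 7.38% of all probes. With adjustment 0 passed, against 0% of all, and the lowest adjusted p from limma among Zfp probes was 0.429. Probes with one sign on the 3 Cy5 arrays and the other sign on both Cy3 arrays numbered 4 of 35 (11.4%), against 8.03% of all. The Zfp family was near the background of the array on both counts.

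These 5 probes were likewise picked for their p: 6541 of Zfp629, 5522 of Zfp687, 12853 of Zfp330, 7330 of Zfp516 and 4545 of Zfp207. Zfp629 had -1.94 and -1.67 on Cy5 arrays and 2.20 and 1.71 on Cy3 arrays, for a dye coefficient of -1.88 ± 0.32 (SE, 4 arrays). Zfp687, whose human counterpart is mutated in a familial bone disease, had -4.76 and -1.41 in Cy5 and 2.82 and 4.13 in Cy3, for -3.28 ± 0.69. Their mutant coefficients were 0.08 ± 0.32 and 0.20 ± 0.69. Zfp330, a nucleolar protein, had -1.01 and -0.72 in Cy5 and 3.99 and 1.96 in Cy3, for -1.92 ± 0.47. Zfp516, an activator of Ucp1 in brown fat, had -1.39 and -0.61 in Cy5 and 3.45 and 0.99 in Cy3, for -1.61 ± 0.54. Zfp207 probe 4545 had -3.05 ± 0.98. None of the first 4 probes had a value on replicate 2. Probe 14176 of Zfp512 stood on the other side of 0, at 1.74 ± 0.69 (5 arrays), with an unadjusted p of 0.0514 and limma's adjusted p of 0.679. Where these genes had another probe, it did not repeat the pattern. Dye coefficients were -0.15 ± 0.48 for Zfp629 probe 16210 and 0.22 ± 0.66 for Zfp207 probe 14617. Zfp687 probe 14902 had 3.13 and 2.42 in Cy5 and -3.03 in Cy3. Zfp516 probe 16366 had -1.94 in Cy5 and -4.73 and -0.45 in Cy3. Zfp512 probe 6208 had -2.09 and -1.90 in Cy5 and 2.19 in Cy3.

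**Figure D4:**
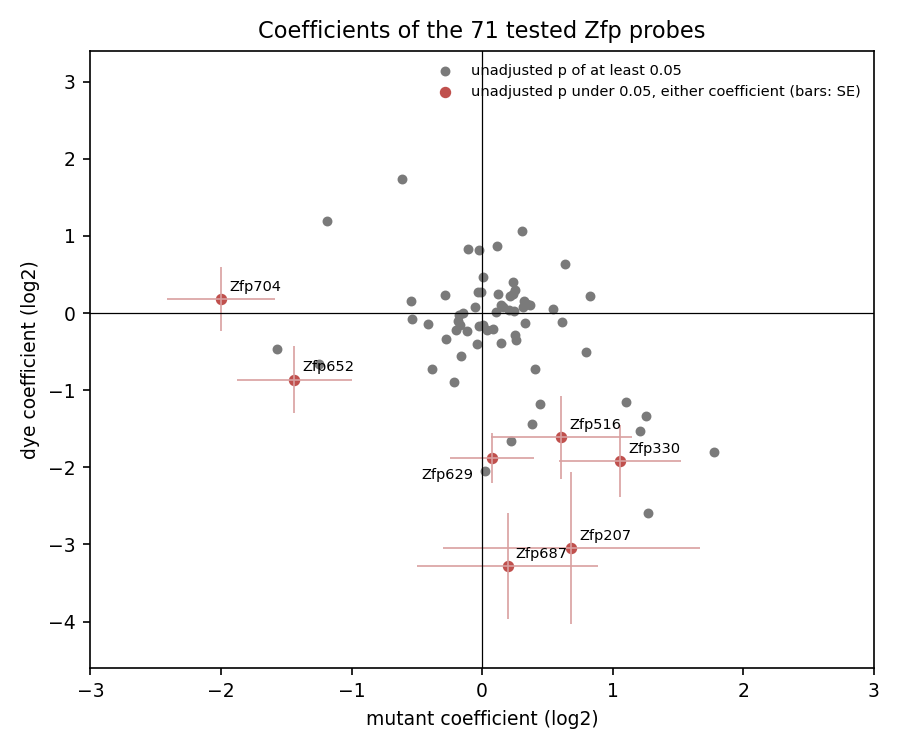
Mutant coefficient (x axis, log2) against dye coefficient (y axis, log2) of the 71 tested Zfp probes; red points, with SE bars and gene names, had an unadjusted p under 0.05 for either coefficient. Zfp704 and Zfp652 lie to the left at -2.00 and -1.44, and the 5 probes picked for the dye coefficient lie at the bottom, between -1.61 and -3.28.

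Probes of the same Zfp gene shared a direction no more often than probe pairs of the array as a whole. For 10 genes with at least 2 tested probes, 12 pairs could be formed, and both coefficients had the same sign in 5 pairs (41.7%), against 51.6% of 1777 pairs over all genes. The Zfp share was 26.7% without replicate 3 and 50.0% without replicate 4. Array by array, the sign was shared in 19 of 50 comparisons (38.0%), against 51.6% over all genes. The share over all genes was itself close to an even split on both counts. This check therefore gives no assurance that gene names are placed on the right probes, among Zfp genes or elsewhere on the array. The median gap between the coefficients of a pair was 0.59 for Zfp genes and 0.52 over all genes, where the median absolute size of a Zfp coefficient was 0.25. The larger SD of a pair was 2.55 times the smaller in the median, against 1.98 times over all genes, so a steady probe did not mean a steady partner. Pairs of a gene with 3 tested probes share probes.

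For 5 genes more than 1 probe was measured on all 5 arrays, and they are given here after their values were seen. Zfp563 shared its sign on 0 of 5 arrays: its second probe had -0.15, 0.00, 0.89, -0.80 and 1.36, beside 0.33, 0.43, 0.00, 0.36 and -0.25 on the first, signs being read before rounding. The second probe on replicate 2 and the first on replicate 3 stood at -0.002, so the signs on these arrays carry no weight. Zfp706 shared its sign on 2 of 5 arrays, with 0.45, -0.61, -0.48, -0.01 and -0.55 on probe 16009, mostly below 0 where probe 19229 lay above. Zfp326, known in human as a subunit of a complex that links transcription to splicing, shared it on 1 of 5.

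The Zfp326 probes had -1.05, -0.12, 4.91, 0.93 and 0.28 on one and 0.71, 0.07, 0.57, -0.07 and -0.48 on the other, with coefficients of 1.26 ± 0.75 and 0.14 ± 0.32. Only the first held a value far from 0, on replicate 3. Zfp207 shared its sign on 3 of 5 arrays, with -0.85, 3.32, 0.09, 0.70 and 1.12 on probe 14617 and an SD of 1.55, where probe 4545 had 4.11. Zfp652 shared it on 2 of 5, with 0.12, 0.90, -1.48, 1.14 and -0.39 on probe 5009 beside the wide values of probe 1419. For none of the 5 genes did the probes show the same sign on all arrays.

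**Figure D5:**
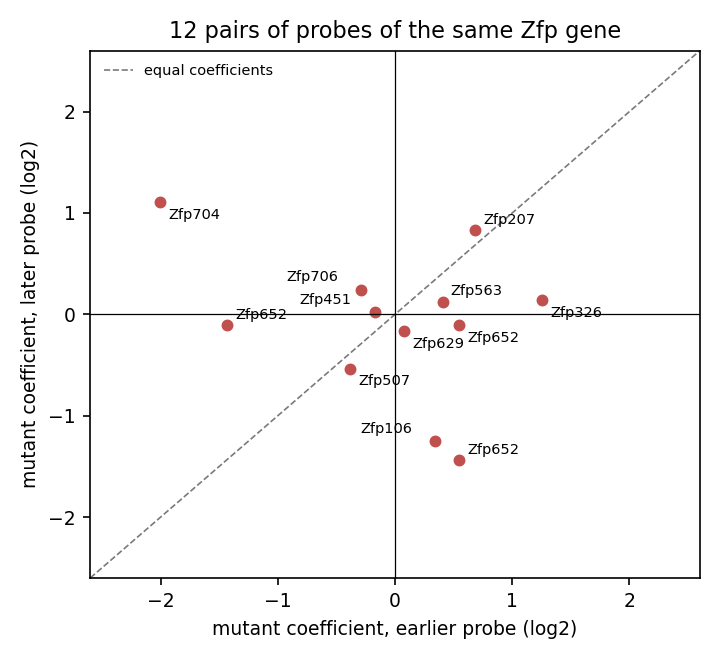
Mutant coefficient (log2) of the earlier (x axis) and later probe (y axis) of the same gene in the table, for the 12 pairs of 10 Zfp genes with at least 2 tested probes; the dashed line marks equal coefficients. In 5 of 12 pairs both have the same sign, and the Zfp704 pair lies farthest from the line, at -2.00 and 1.11.

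Zfp genes often lie side by side in the genome, since the family grew by local duplication. In the order of protein-coding genes of GRCm38.p6, 14 pairs of member genes had at most 2 genes between them, and 3 of those pairs had a tested gene value on both sides. Zfp236 stood at -0.45 and Zfp516, its neighbour, at -0.66 over its probes. Zfp553 stood at -1.19 and its neighbour Zfp771 at 0.45, and Zfp27 at 0.54 and Zfp568 at 0.31. So few pairs are given as values only.

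The machinery through which Zfp proteins act was read from 2 lists. Of 30 listed genes of KRAB-directed repression, 15 were tested as gene means, 7 above and 8 below 0, with a median of -0.06, against 0.03 over all genes, and 0 passed the adjusted test. At an unadjusted p under 0.05 there was 1 of 15, against 3.94% of all genes. The 2 genes of lowest p in each list are given. Rbbp7, a histone-binding subunit of the NuRD complex, had -0.63, -1.70, -0.94, -0.19 and -2.59 over its 2 probes. All 5 values were below 0, and the coefficient was -1.30 ± 0.41, with an unadjusted p of 0.0211 and limma's adjusted p of 0.998. Dnmt3a, a de novo DNA methyltransferase, had 0.23, 0.72, -0.11, 0.99 and 0.96 over its 5 probes, and 0.54 ± 0.32.

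Of 31 listed genes of messenger RNA decay, the partners of Zfp36, 17 were tested, 9 above and 8 below 0. Their median was 0.10, against 0.03 over all genes, and 0 passed the adjusted test. At an unadjusted p under 0.05 there were 2 of 17, against 3.94% of all genes, and both are given here for their p. Exosc2, a subunit of the RNA exosome, had -0.82, -1.02, -1.41 and -0.87 on replicates 1, 3, 4 and 5. All 4 lay below 0, in both orientations, for a coefficient of -1.03 ± 0.33, with an unadjusted p of 0.0307 and limma's adjusted p of 0.998. Cnot2, a scaffold of the CCR4-NOT deadenylase, had -0.20, 0.32, -0.08 and -2.08 on replicates 1, 2, 4 and 5, and -1.03 ± 0.38. The low value was that of replicate 5, the sole Cy3 array for this gene.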

How the data were processed

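The authors deposited log2 ratios of the 2 channels of each array, 1 column per array; scanner, background correction and normalization: not given in the sources used here. A log2 scale was read from the numbers themselves, many of which equal an array constant plus the log2 of a ratio of whole numbers. All 5 columns were used (0 unused). Values of absolute size over 12 were set to missing. By the platform's annotation, 14030 probes had 1 symbol, 5 several and 6320 are unnamed here.

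Probes with at least 4 values were fitted with limma (version 3.58.1, R 4.3.3), lmFit and eBayes, with an intercept and a dye term, the intercept being tested against 0 with Benjamini-Hochberg adjustment over all probes tested. The fit was tested on simulated data. Members, gene lists and named-gene rule were chosen with earlier results of these data known. Named were: members with 1 sign on 5 arrays by p (up to 4 each way), among probes with 5 values the 2 lowest dye p and the 3 lowest and 3 highest SDs, the listed genes, and the genes with most probes; further probes are marked as singled out later. Each mutant animal was hybridised once, so the number of arrays limits the precision, and the table gives no depth or brightness.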

Additional observations from a re-analysis of the deposited data

Results flagged for a closer look

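On 4 of the 71 Zfp probes with 4 or 5 values, 1 array stood far from the rest. The nominal rate of such flags is about 1 in 20, and the count is near it. The share over all probes was not taken, so no excess beside the array is shown. The measure is the gap of the extreme array to its nearest neighbour, divided by the whole range. Zfp994 had -1.98 on replicate 2 and 0.24 to 0.42 on the other 3 (0.929 of the range). Zfp787 had -0.24 on replicate 3 and 0.45 to 0.56 on the other 4 (0.868). Zfp704 probe 19333 had -1.76 on replicate 1 and 1.66 to 2.31 on the others (0.840). Zfp451 probe 10032 had 5.24 on replicate 3 and -2.40 to -1.11 on the others (0.831). Probe 19568 of Zfp451, with too few values for this measure, was also high on replicate 3, at 4.57. It had -0.89 and -0.21 on replicates 1 and 5, while probe 2730 had -0.67 on replicate 3.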

How the results depend on the processing

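No Zfp probe passed limma's adjusted test for the mutant or the dye coefficient under any alternative run. No Zfp gene passed it for the mutant coefficient. For the dye coefficient, Zfp genes were counted only in the main run with probes averaged, where 0 of 64 passed. At an unadjusted p under 0.05 for the mutant coefficient stood 0 of 35 Zfp probes with values on all 5 arrays. It was also 0 of 35 without simple-ratio values and 0 of 64 genes with probes averaged. With 1 array left out, the count ran from 2 of 88 (without replicate 2) to 5 of 69 (without replicate 5). For the dye coefficient it was 8 of 71 with centred arrays, 8 of 71 with centred and scaled arrays and 8 of 100 with at least 3 values. It was 2 of 64 genes with probes averaged, and 4 of 81 (without replicate 1) to 10 of 69 (without replicate 5) with 1 array left out. Except for the mutant coefficient with probes averaged (3.94% of all genes), the share over all probes was not taken in these settings. These counts therefore show no excess or lack beside the array. The share of coefficients above 0 ran from 49.3% (without replicate 5) to 67.9% (without replicate 1). Without simple-ratio values, 50.7% of Zfp values were missing. The median SD was then 1.06 (9 probes), against 0.63 over all 2393 probes with 5 such values. Of those 9, 0% had 1 sign, against 6.98% of all. The median SD was 1.36 with at least 3 values, against 1.16 over all probes. With 1 array left out it ran from 0.64 (without replicate 4) to 0.98 (without replicate 2). Over all probes it was 0.69 and 0.77 in those 2 runs.

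Of 30 named coefficients, 11 kept their sign throughout and 19 turned somewhere. Averaging a gene's probes turned Zfp706 probe 19229 (-0.023), Zfp451 probe 2730 (0.28), Zfp652 probes 1991 and 5009 (0.18), Zfp106 probe 4192 (-0.11), Zfp516 (-0.66), Zfp704 probe 19333 (-0.13) and Zfp787 (-0.043). Dropping the dye term turned Zfp652 probe 5009 (0.059). With 1 array left out, the ranges that crossed 0, with the replicate left out in brackets, were Zfp207 probe 4545 -0.99 (without 5) to 2.35 (without 3), Zfp652 probe 1419 -0.31 (without 4) to 1.49 (without 2), Zfp36l1 -0.0087 (without 3) to 0.51 (without 5), Zfp423 -0.26 (without 2) to 0.82 (without 4), Zfp568 -0.67 (without 4) to 1.04 (without 1), Zfp598 -0.45 (without 1) to 0.16 (without 2), Zfp451 probe 2730 -0.44 (without 5) to 0.089 (without 3), Zfp652 probe 5009 -0.38 (without 5) to 0.17 (without 3), Zfp516 -0.0055 (without 3) to 1.22 (without 5), Zfp629 -0.047 (without 3) to 0.20 (without 5), Zfp687 -0.64 (without 4) to 1.03 (without 1), Zfp326 probe 15200 -0.12 (without 3) to 0.40 (without 5), Zfp451 probe 10032 -1.57 (without 3) to 1.61 (without 5) and Zfp994 -0.25 (without 1) to 0.34 (without 2). The cause of these turns was not tested, beyond the smaller number of arrays or the second probe that each setting brings in. Averaged gene values were not run with scaled arrays, kept codes or simple-ratio values left out. Scanner-level alternatives could not be run on a table of ratios.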

Other observations

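Some of the most extreme Zfp values came from probes with few measurements. Probe 17171 of Zfp251 had 4.91 on replicate 2 and -5.00 on replicate 3 and no other value, while the gene's full probe stayed between -0.93 and 0.58. Probe 18067 of Zfp689 had 6.24 on replicate 3 and -0.34 to 0.92 on 3 other arrays, and its probe 17205 had -5.98, -2.36 and -2.24 on replicates 2, 4 and 1. These probes were picked for their extreme values.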
